A study of Mus musculus with 12 samples.

Results

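The vessels of flank tumours were followed through 10 endothelial genes in 12 libraries. These were the cell surface and junction genes Pecam1, Cdh5, Cldn5, Esam and Emcn and the growth factor receptors Kdr, Flt1 and Tek. The others were the receptor ligand Angpt2 and the clotting factor carrier Vwf. All 10 were picked by name as genes typical of vessel endothelium, from 18433 genes in the deposited table. Each was among the 14144 genes with enough counts to be tested. The tumours had grown from 4T1 mouse mammary carcinoma cells placed under the skin of the right flank of BALB/c mice. Every group therefore carried the same tumour line in the same host strain, with 5 mice in each of 4 randomised arms and 3 libraries sequenced from each arm. Control tumours had no listed treatment. The DSF arm received DSF by mouth (the labels do not spell out the abbreviation), the anti-PD-1 arm received a blocking antibody against the T cell checkpoint receptor PD-1 into the abdominal cavity, and the combination arm received both. Ages, doses and sampling times are not given in the sources used here, and nothing states how each library relates to a single mouse, so the tests measure the spread between these libraries.

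Endothelial cells line blood vessels and hold together through adherens and tight junctions. Vascular endothelial growth factor, made largely by tumour and stromal cells, acts on them through Kdr (VEGFR2), while Flt1 (VEGFR1) binds the same ligand and can act as a decoy for it. Angpt2 is released by endothelium and binds the receptor Tek (Tie2), where it commonly opposes the vessel-stabilising ligand Angpt1. Notch signalling through Dll4 limits how many cells become the sprouting tip cells at the front of new vessels.

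None of the 10 genes passed the test for a difference in any comparison of the treatment groups, while at most 1.86% of all genes did. DSF replicate 2 had the highest level of 8 of the 10 genes. The genes tracked one another across libraries, by Pearson's r most of all Pecam1, Tek, Esam and Cldn5. Ranked by Spearman's rho, Kdr came second to Pecam1. The median r of their pairs was 0.748 over 12 libraries and 0.487 without DSF replicate 2. By Pearson's r Angpt2 followed the others least, next to Cdh5 over all 12 libraries and to Flt1 without DSF replicate 2. Among other vessel genes, the Notch ligand Dll4 was lower with the combination than with DSF alone. It passed the test with all libraries, but not in 6 of 12 fits that each left out 1 library, nor when only both groups were fitted. In the same comparison all 11 genes of a tip cell list had negative log2 fold changes, where 53.8% of all genes did. All 10 endothelial genes and 13 of 13 other junction and surface genes were negative as well. Other vessel lists were less one-sided, such as 9 of 12 other endothelial receptors and 6 of 11 endothelial transcription factors. Without DSF replicate 2 all 11 tip cell genes were still negative, against 3 of 10 endothelial and 6 of 13 junction and surface genes. The difference between lists was not tested. None of the 11 passed the test, and which cells expressed them was not tested.

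Total counts per library ranged from 13323171 to 16809705. Before any result, DSF replicate 2 must be set apart: 10 adipocyte marker genes summed to 4590 CPM there (counts scaled to library size) and to 13 to 260 CPM in the other 11 libraries, and 6 fibroblast markers summed to 8550 CPM against 802 to 4530 CPM. The 11 pericyte and smooth muscle markers summed to 394 CPM in that library and 126 to 372 CPM elsewhere. The combination tumours carried more skin and hair follicle transcript, with 347 to 4860 CPM over 10 markers against 11.7 to 395 CPM in the other groups. A list of 14 endothelial markers, 9 of them among the 10 genes described here, summed to 748 CPM in DSF replicate 2 and to 260 to 555 CPM elsewhere, and no marker of it was at 0 in any library. In these bulk samples fewer endothelial cells and less RNA per endothelial cell cannot be told apart.

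Compared per transcript length, as FPKM (fragments scaled to transcript length and library depth) averaged over the 12 libraries, the adhesion genes stood highest. Pecam1 had a mean of 27.4 FPKM with a range of 16.8 to 54.6 FPKM, and Cdh5 had 22.2 FPKM with a range of 11 to 40.6 FPKM. Emcn followed at 11.2 FPKM, Esam at 9.28 FPKM, Angpt2 at 8.24 FPKM and Flt1 at 5.18 FPKM. Kdr at 3.56 FPKM, Cldn5 at 3.2 FPKM, Tek at 1.52 FPKM and Vwf at 0.986 FPKM were lowest. The ranges of neighbouring genes in this order overlapped at every step. All levels below are CPM on library sizes scaled by TMM and serve to compare libraries for 1 gene, not genes with one another.

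**Figure D1:**
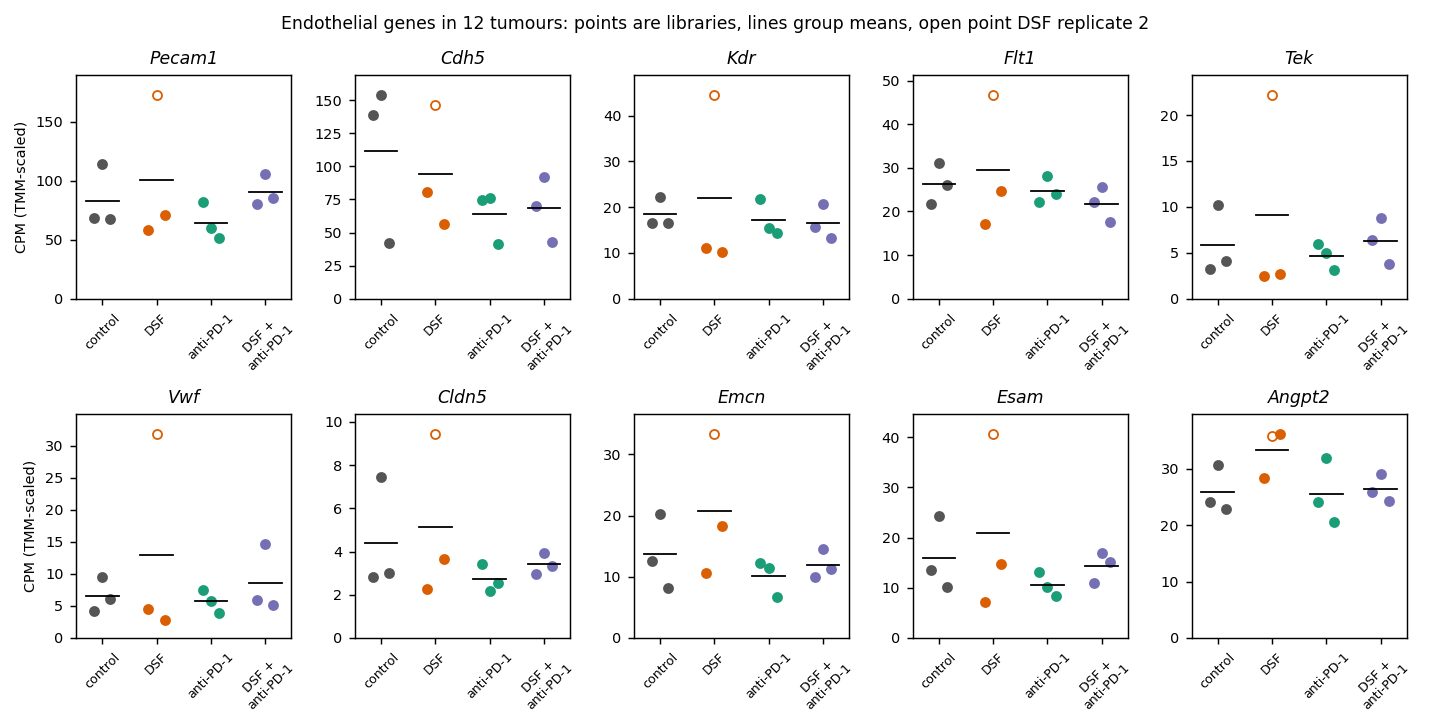
Level of each endothelial gene in CPM (vertical axes, each starting at 0) in the 3 libraries of each treatment group; points are libraries, lines are group means, and the open point is DSF replicate 2. The open point is the highest of 12 for 8 genes, the exceptions being Cdh5, highest in control replicate 2 at 154 CPM, and Angpt2, highest in DSF replicate 3 at 36.1 CPM.

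Kdr (gene identifier 16542), the main signalling receptor for vascular endothelial growth factor, was at 16.5, 22.3 and 16.6 CPM in control replicates 1 to 3. It was at 11.1, 44.5 and 10.3 CPM with DSF, at 21.8, 15.5 and 14.3 CPM with anti-PD-1, and at 15.6, 20.6 and 13.3 CPM with the combination. The DSF group thus held both the highest library and the lowest 2 of all 12, and its range covered every other group. The mean ± SD over 3 libraries was 18.5 ± 3.3 CPM in control, 22 ± 19.5 CPM with DSF, 17.2 ± 4.06 CPM with anti-PD-1 and 16.5 ± 3.74 CPM with the combination. For the combination against DSF, edgeR's quasi-likelihood test gave a log2 fold change of -0.42 ± 0.48 (SE), Benjamini-Hochberg adjusted p = 0.684. Without DSF replicate 2 the same value was 0.62 ± 0.24, adjusted p = 0.133 by edgeR, so the sign rested on that library.

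Flt1 (14254), the second receptor for the same ligand, was at 21.6, 31.1 and 26.0 CPM in control and at 17.2, 46.7 and 24.7 CPM with DSF. It was at 22.2, 28.0 and 23.9 CPM with anti-PD-1 and at 22.1, 25.7 and 17.6 CPM with the combination. Apart from DSF replicate 2 the libraries lay within 1.81-fold of one another, and the groups overlapped throughout. The means were 26.2 ± 4.8, 29.5 ± 15.3, 24.7 ± 2.99 and 21.8 ± 4.06 CPM (SD, n = 3) in control, DSF, anti-PD-1 and combination tumours. The edgeR log2 fold change of the combination against DSF was -0.44 ± 0.31 (adjusted p = 0.476), and 0.06 ± 0.22 without DSF replicate 2.

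Tek (21687), the angiopoietin receptor, was at 3.23, 10.2 and 4.06 CPM in control and at 2.45, 22.2 and 2.64 CPM with DSF. It was at 5.93, 4.96 and 3.07 CPM with anti-PD-1 and at 6.42, 8.75 and 3.75 CPM with the combination. Replicate 2 was the highest library of control, DSF and the combination, and DSF again held the extremes at both ends. Group means were 5.83 ± 3.82 CPM in control, 9.09 ± 11.3 CPM with DSF, 4.65 ± 1.45 CPM with anti-PD-1 and 6.31 ± 2.5 CPM with the combination. DSF against anti-PD-1 gave a log2 fold change of 0.97 ± 0.78 in edgeR (adjusted p = 0.811), which became -0.87 ± 0.54 (adjusted p = 0.728) without DSF replicate 2.

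The 250 bases upstream of the RefSeq start are shown for the 3 receptors and for Emcn, because ETS-family factors such as Erg are known regulators of endothelial genes. Over 12 libraries the 4 genes correlated in pairs with r from 0.632 (Kdr and Emcn) to 0.93 (Kdr and Tek). Without DSF replicate 2 r was 0.516 to 0.853 among the receptors but 0.195, 0.324 and 0.394 for Emcn with Kdr, Flt1 and Tek. The table of RefSeq promoters (GRCm38.p6) matched 5 of the 10 genes. Capitals mark GGAA or TTCC, the core of the ETS motif on either strand. The windows lie at chr5:75978456-75978705 on the minus strand for Kdr, chr5:147726012-147726261 on the minus strand for Flt1, chr4:94739039-94739288 on the plus strand for Tek and chr3:137340828-137341077 on the plus strand for Emcn, each written 5′ to 3′ along the gene.
Kdr: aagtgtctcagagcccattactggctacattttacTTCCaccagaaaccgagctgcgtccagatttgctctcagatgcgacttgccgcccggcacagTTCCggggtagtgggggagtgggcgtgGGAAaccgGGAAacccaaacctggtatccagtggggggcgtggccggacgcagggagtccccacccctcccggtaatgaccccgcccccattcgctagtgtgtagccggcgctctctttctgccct
Flt1: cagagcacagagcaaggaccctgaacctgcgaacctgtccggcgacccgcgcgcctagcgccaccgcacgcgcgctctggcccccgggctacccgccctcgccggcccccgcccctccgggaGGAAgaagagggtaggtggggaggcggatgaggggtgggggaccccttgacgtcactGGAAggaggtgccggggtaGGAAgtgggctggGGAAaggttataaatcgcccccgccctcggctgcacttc
Tek: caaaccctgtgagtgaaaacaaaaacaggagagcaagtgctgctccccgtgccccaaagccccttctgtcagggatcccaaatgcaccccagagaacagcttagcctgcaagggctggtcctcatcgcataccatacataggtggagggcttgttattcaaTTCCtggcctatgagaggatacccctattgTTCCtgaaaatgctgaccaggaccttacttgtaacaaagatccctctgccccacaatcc
Emcn: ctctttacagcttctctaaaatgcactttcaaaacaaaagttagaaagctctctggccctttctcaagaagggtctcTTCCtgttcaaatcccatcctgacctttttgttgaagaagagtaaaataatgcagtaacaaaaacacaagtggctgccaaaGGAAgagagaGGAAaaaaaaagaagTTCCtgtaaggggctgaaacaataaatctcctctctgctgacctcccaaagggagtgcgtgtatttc

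The core was found 4 times in the Kdr, Flt1 and Emcn windows, 2 times in the Tek window and 0 times in the fifth window, that of Cldn5. It was present in 93.4% of 32851 promoter windows of the same length, with a median of 3 per window, and 33.4% of windows held 4 or more. Its presence therefore does not set these genes apart, and a match is a description and not a binding site. TATAAA was searched on both strands as well and was found 1 time, in the Flt1 window, against 12.4% of all windows.

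Angpt2 (11601), the Tek ligand, varied least. It was at 24.1, 30.6 and 22.9 CPM in control, at 28.3, 35.7 and 36.1 CPM with DSF, at 24.1, 31.8 and 20.6 CPM with anti-PD-1 and at 25.9, 29.0 and 24.2 CPM with the combination. The highest 2 libraries were both from the DSF arm, and DSF replicate 1 lay among the other groups. The means were 25.9 ± 4.16 CPM in control, 33.4 ± 4.41 CPM with DSF, 25.5 ± 5.72 CPM with anti-PD-1 and 26.4 ± 2.46 CPM with the combination. The largest pairwise difference was DSF over anti-PD-1, a log2 fold change of 0.39 ± 0.18 in edgeR (adjusted p = 0.63). It was 0.34 ± 0.20 (adjusted p = 0.709) without DSF replicate 2, a library that lay 1.38-fold above the median of the other 11.

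Pecam1 (18613), the platelet and endothelial adhesion molecule CD31, was at 68.2, 114 and 67.5 CPM in control and at 58.3, 173 and 71.1 CPM with DSF. It was at 82.1, 59.8 and 51.3 CPM with anti-PD-1 and at 80.2, 106 and 85.2 CPM with the combination. All groups overlapped, with means of 83.3 ± 26.7, 101 ± 62.6, 64.4 ± 15.9 and 90.5 ± 13.7 CPM in that order. DSF against anti-PD-1 gave 0.65 ± 0.37 on the log2 scale (edgeR, adjusted p = 0.704), and 0.01 ± 0.26 without DSF replicate 2.

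Cdh5 (12562), the endothelial cadherin of adherens junctions, was at 139, 154 and 41.8 CPM in control and at 80.7, 146 and 56.3 CPM with DSF. It was at 74.4, 75.8 and 41.3 CPM with anti-PD-1 and at 69.8, 91.8 and 43.2 CPM with the combination. Replicate 3 was lowest in every group, and the 3 highest values came from control replicates 1 and 2 and DSF replicate 2. The group means were 112 ± 61 CPM in control, 94.5 ± 46.6 CPM with DSF, 63.8 ± 19.5 CPM with anti-PD-1 and 68.3 ± 24.3 CPM with the combination. Anti-PD-1 against control gave a log2 fold change of -0.81 ± 0.49 in edgeR, adjusted p = 0.999.

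Cldn5 (12741), the claudin of endothelial tight junctions, was at 2.80, 7.43 and 3.00 CPM in control, 2.26, 9.43 and 3.67 CPM with DSF, 3.44, 2.18 and 2.53 CPM with anti-PD-1 and 2.98, 3.94 and 3.34 CPM with the combination. Only control replicate 2 and DSF replicate 2 lay above 3.94 CPM. Esam (69524), an adhesion molecule at endothelial tight junctions, was at 13.5, 24.3 and 10.1 CPM in control, 7.23, 40.6 and 14.7 CPM with DSF, 13.2, 10.2 and 8.30 CPM with anti-PD-1 and 11, 17 and 15.1 CPM with the combination. Its highest libraries were the same pair. DSF against anti-PD-1 gave log2 fold changes of 0.91 ± 0.53 for Cldn5 (edgeR, adjusted p = 0.709) and 0.98 ± 0.53 for Esam (adjusted p = 0.685), and 0.12 ± 0.45 and 0.05 ± 0.40 without DSF replicate 2.

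Emcn (59308), a sialomucin of capillary and venous endothelium, was at 12.6, 20.3 and 8.12 CPM in control and at 10.6, 33.3 and 18.3 CPM with DSF. It was at 12.2, 11.4 and 6.68 CPM with anti-PD-1 and at 9.93, 14.6 and 11.2 CPM with the combination. The groups overlapped, although 2 DSF libraries lay above all anti-PD-1 libraries. Means were 13.7 ± 6.17, 20.7 ± 11.5, 10.1 ± 2.98 and 11.9 ± 2.41 CPM (SD, n = 3) in control, DSF, anti-PD-1 and combination tumours. The log2 fold change of DSF over anti-PD-1 was 1.04 ± 0.43 in edgeR, with adjusted p = 0.609, and 0.52 ± 0.39 (adjusted p = 0.784) without DSF replicate 2.

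Vwf (22371), which carries coagulation factor VIII and binds platelets, was at 4.20, 9.47 and 6.12 CPM in control and at 4.45, 31.8 and 2.79 CPM with DSF. It was at 7.53, 5.81 and 3.85 CPM with anti-PD-1 and at 5.96, 14.7 and 5.18 CPM with the combination. It had the widest range of the 10 genes, 11.4-fold between its extreme libraries, both from the DSF arm. Among the 11 libraries other than DSF replicate 2 the range was 5.29-fold. DSF against anti-PD-1 gave 1.18 ± 0.79 on the log2 scale (edgeR, adjusted p = 0.75) and -0.66 ± 0.52 without DSF replicate 2.

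**Figure D2:**
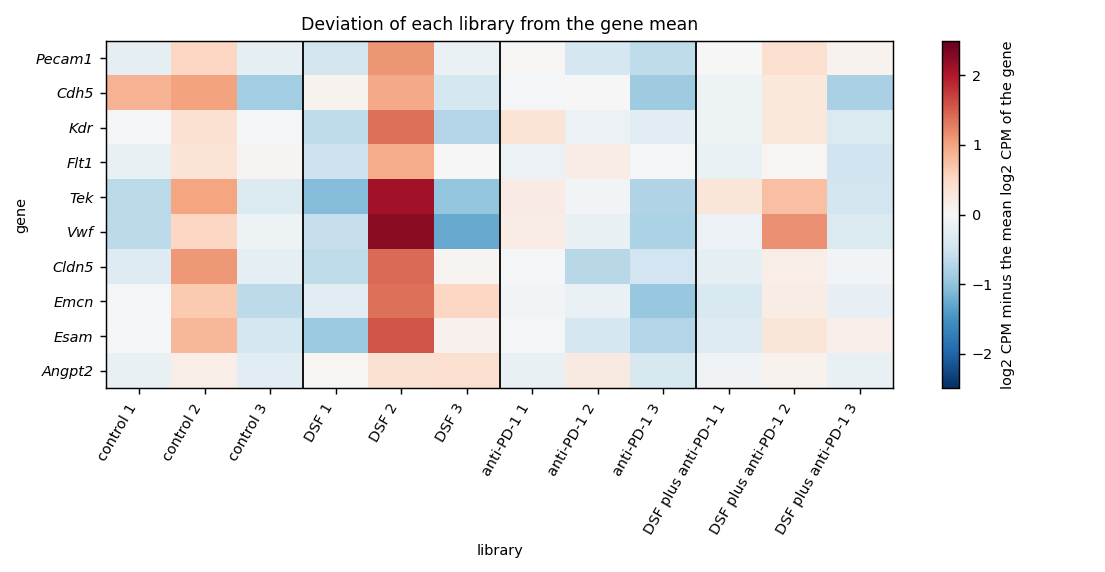
Log2 CPM of each endothelial gene (rows) in each library (columns) minus that gene's mean over the 12 libraries; red is above and blue below the mean, and black lines separate the groups. DSF replicate 2 is red for all 10 genes, with control replicate 2 and combination replicate 2 next; averaged over genes these libraries stand at 1.33, 0.64 and 0.36.

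The mean deviation of the 10 genes placed DSF replicate 2 highest at 1.33 on the log2 scale, followed by control replicate 2 at 0.64 and combination replicate 2 at 0.36. Anti-PD-1 replicate 3 at -0.59 and DSF replicate 1 at -0.49 were lowest. The same 3 libraries led in adipocyte marker sum, with 4590, 260 and 252 CPM, and in fibroblast and pericyte marker sums, with 8550, 4330 and 4530 CPM and 394, 271 and 372 CPM. The part of fat, fibroblasts or pericytes in the endothelial levels was not tested. The excess of DSF replicate 2 over the median of the other 11 libraries was unequal between genes, 5.47-fold for Vwf and 5.46-fold for Tek against 3.14-fold for Cldn5, 3.09-fold for Esam, 2.93-fold for Emcn, 2.86-fold for Kdr, 2.43-fold for Pecam1, 1.97-fold for Cdh5, 1.95-fold for Flt1 and 1.38-fold for Angpt2.

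Set against the arms, the endothelial genes leaned to one side in several comparisons without passing the test. With DSF against control, 9 of 10 fold changes were positive (55.6% of all genes were) with a median of 0.32 on the log2 scale, against 0.03 over all genes tested. With anti-PD-1 against control all 10 were negative (background 49.5%) with a median of -0.35, the smallest change being Angpt2 at -0.02 and the largest Cdh5 at -0.81. Over 12 fits that each left out 1 library this median ran from -0.56 to 0.0069, so its size and sign could rest on 1 library. With the combination against control 6 of 10 were negative (background 47.4%) with a median of -0.16. The combination against DSF gave 10 negative values (background 53.8%) with a median of -0.50, and against anti-PD-1 it gave 8 positive values (background 51.6%) with a median of 0.28. These comparisons share groups, and genes that track one another are not independent votes.

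The edgeR quasi-likelihood test called 0 of the 10 genes in each of 10 comparisons at an adjusted p under 0.05, and DESeq2 called 0 as well. Over all genes the share called was 1.86% for the combination against DSF, 0.0707% for DSF against anti-PD-1 and 0% in the other 8 comparisons. At an unadjusted p under 0.05, only Emcn in DSF against anti-PD-1 passed, 1 of 10 genes where 7.94% of all genes passed, and 0 of 10 passed in the other 9 comparisons. In those the share of all genes ran from 1.73% (anti-PD-1 against control) through 8.15% (main effect of DSF), 10.1% (main effect of anti-PD-1), 10.3% (combination against anti-PD-1), 10.6% (DSF against control), 11.2% (combination against control), 12.4% (interaction) and 13.2% (any difference) to 18.9% (combination against DSF). The smallest adjusted p of the endothelial genes lay between 0.334 and 0.999 by comparison, in edgeR. In no pair of groups did the 3 libraries of one group all lie above or below the 3 of the other for any of the 10 genes, while among all genes 5.68% were separated in this way for anti-PD-1 and control, 10.4% for DSF and anti-PD-1, 11.5% for DSF and control, 19.3% for combination and control, 20.8% for combination and anti-PD-1 and 23.1% for combination and DSF.

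**Figure D3:**
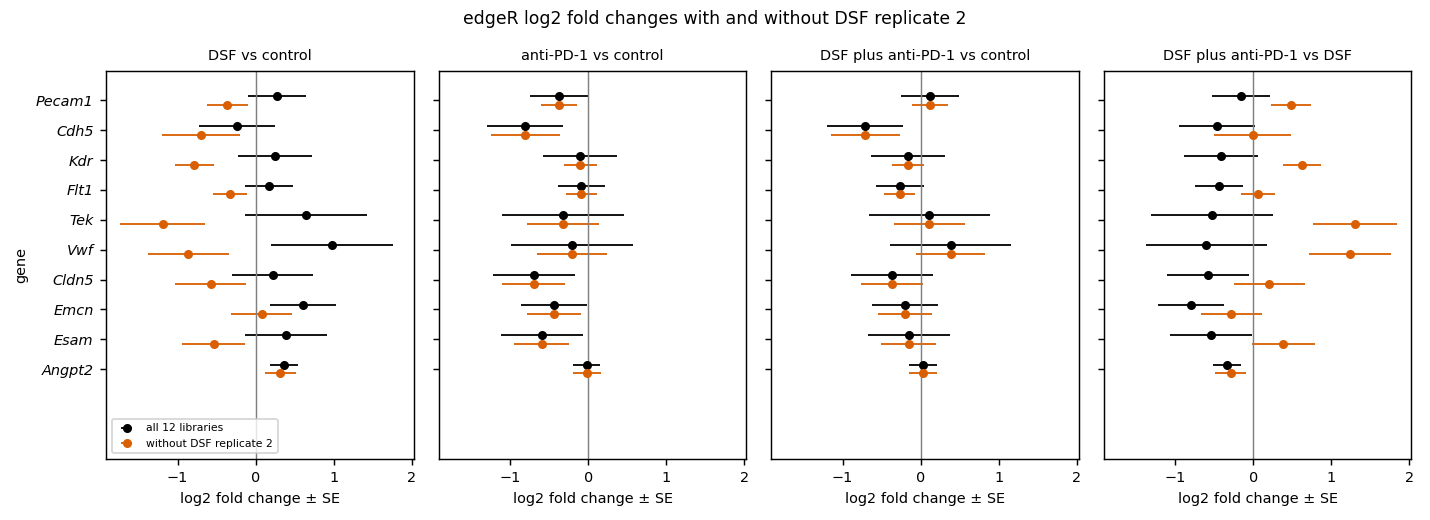
edgeR log2 fold changes with standard errors (horizontal axes, shared scale) for the 10 endothelial genes in 4 comparisons, with all 12 libraries in black and without DSF replicate 2 in orange. In DSF against control the median moves from 0.32 to -0.56 and in the combination against DSF from -0.50 to 0.30; comparisons that do not involve DSF alone keep their values.

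Leaving out DSF replicate 2 turned the sign of 32 of the 90 fold changes, while the next library by this count, control replicate 2, turned 14. DSF against control then had 8 negative values of 10 (background 51%) and a median of -0.56. Tek stood at -1.19 ± 0.54 (adjusted p = 0.39 in edgeR) and Kdr at -0.78 ± 0.24 (adjusted p = 0.315), the only gene of the 10 with an unadjusted p under 0.05 there, where 12.8% of all genes had one. The combination against DSF then had 7 positive values of 10 (background 50.1%) with a median of 0.30, and Kdr, Tek at 1.30 ± 0.54 and Vwf at 1.24 ± 0.53 had an unadjusted p under 0.05, 3 of 10 genes against 26.9% of all genes. Their adjusted p in edgeR was 0.133 to 0.161. The interaction, the DSF effect with anti-PD-1 minus that without, had 3 such genes (Pecam1, Kdr and Tek) against a background of 20.8%, with a median over the 10 genes of 0.83 instead of -0.26. 0 of the 10 genes were called in any comparison without this library, which left the DSF arm with 2 libraries. Over all genes the share called was then 4.86% for the combination against DSF and 0.0495% for DSF against anti-PD-1. It was 0% in each other comparison.

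Ratios within a library compare endothelial genes with one another. Such a ratio is free of the library's share of endothelium only if both genes are expressed by endothelium alone, which was not tested. Angpt2 to Tek, ligand to receptor, was 7.45, 3.0 and 5.65 as a ratio of CPM in control, 11.5, 1.61 and 13.7 with DSF, 4.06, 6.41 and 6.73 with anti-PD-1 and 4.03, 3.32 and 6.44 with the combination. DSF tumours thus gave the lowest ratio and the highest 2 ratios of the 12. Flt1 to Kdr averaged 1.42 ± 0.127 in control, 1.66 ± 0.677 with DSF, 1.5 ± 0.424 with anti-PD-1 and 1.33 ± 0.0902 with the combination (SD, n = 3). Kdr to Cdh5 averaged 0.221 ± 0.155, 0.208 ± 0.0861, 0.281 ± 0.0713 and 0.252 ± 0.0491 in that order, and Angpt2 to Cdh5 averaged 0.307 ± 0.21, 0.412 ± 0.206, 0.415 ± 0.0881 and 0.415 ± 0.128. Two-sided exact permutation tests of these 4 ratios for each treatment, 6 libraries against 6, gave p from 0.195 to 0.994. After Benjamini-Hochberg adjustment over the 8 exact tests p was 0.994 for each, where the smallest raw p the design allows is 0.00216.

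The 10 genes tracked one another across libraries. The 45 pairwise Pearson correlations of log2 CPM had a median of 0.748 and ran from 0.253 to 0.949 over 12 libraries. Over the 11 libraries without DSF replicate 2 the median was 0.487, from -0.202 for Kdr and Angpt2 to 0.898. These values are descriptive, since all genes of a library share its depth and tissue make-up. Against the mean of the other 9 genes, Pecam1 had the highest correlation, 0.944 over 12 and 0.881 over 11 libraries, and Tek, Esam and Cldn5 had 0.921, 0.921 and 0.9 over 12. Cdh5 stood at 0.662 and 0.581, Flt1 at 0.8 and 0.52, and Angpt2 at 0.549 and 0.334. The order of the low genes thus changed with DSF replicate 2, which held the highest Flt1 level. By Spearman's rho Kdr was second to Pecam1, at 0.797 against 0.811 over 12 libraries, and Cldn5 stood at 0.664. Over 11 libraries Flt1 was lowest by rho at 0.327, followed by Angpt2 at 0.345. Angpt2 was closest to Emcn among the 10, with 0.819 over 12 and 0.778 over 11 libraries.

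**Figure D4:**
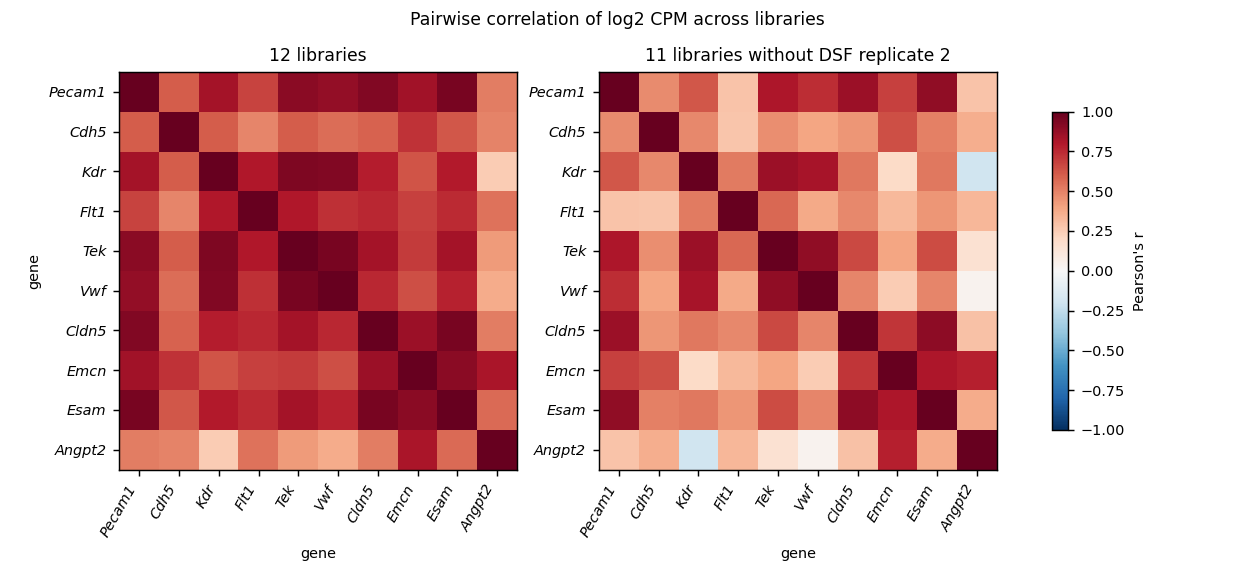
Pearson's r of log2 CPM for each pair of endothelial genes, over 12 libraries on the left and over 11 libraries without DSF replicate 2 on the right; the colour scale runs from -1 to 1. The median of the 45 pairs is 0.748 on the left and 0.487 on the right, and the Angpt2 row is the palest in both, followed by Cdh5 on the left and Flt1 on the right.

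A mean of at least 5 CPM was reached by 11254 genes, a count that includes members of the 10. Of those outside the 10, Lama4 and Adgrl4 were most like the mean of the 10 in both sets of libraries. Lama4 is a laminin chain of vessel basement membranes (r = 0.978 over 12 and 0.957 over 11 libraries). Adgrl4 is an adhesion receptor of endothelium (0.982 and 0.955). Pde2a (0.982 and 0.954), a phosphodiesterase, Tie1 (0.971 and 0.937), the partner receptor of Tek, and Sox18 (0.957 and 0.926), an endothelial transcription factor, came next. Rtn4rl2, Slc43a3, Rasgrp3, Adgra2 and Col15a1 completed the first 10, with r of at least 0.903 over 11 libraries. Ranked by Spearman's rho instead, the list was led by Gpx3 and Dcn, the latter a fibroblast proteoglycan, and shared only Adgrl4 with the first. Applied to single genes, a step added after seeing the data, the same rule put Erg and Plvap nearest to Pecam1 (0.98 and 0.979 over 12 libraries), Gprc5b nearest to Cdh5 (0.847) and Synpo nearest to Angpt2 (0.915).

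In the deposited transcript table Cldn5, Esam and Angpt2 had 1 transcript each. The leading Cdh5 transcript took 92.8% to 100% of the gene's expected counts by library, the leading Kdr transcript 75% to 100%, that of Flt1 73% to 94.1% and that of Emcn 79.9% to 91.9%. Pecam1 was divided over 9 transcripts, the leading one with 30.4% to 50.3%. For Tek and Vwf the leading transcript ran from 0% to 87.7% and from 0% to 99.8% between libraries, so the split of these low genes among transcripts was not stable and is not compared between groups.

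The wider pathway was read through 7 lists. A ligand list held genes of the VEGF and angiopoietin families, the angiopoietin-like gene Angptl4, and Apln, which is also counted in the tip cell list below. Of its 8 tested genes, 0 were called in any comparison. In the combination against DSF 7 of 8 were negative (background 53.8%) with a median log2 fold change of -0.56, and 4 had an unadjusted p under 0.05 against 18.9% of all genes. Without DSF replicate 2, 6 of 8 were negative (background 49.9%) with a median of -0.33. Vegfa, the main ligand of Kdr, was at 80.4, 93.8 and 40.4 CPM in control, 78.7, 130 and 117 CPM with DSF, 50.7, 110 and 72.7 CPM with anti-PD-1 and 49.5, 39.0 and 30.8 CPM with the combination. Every combination library lay below every DSF library, and the edgeR value was -1.45 ± 0.35 with adjusted p = 0.0581, which did not pass. Apln, the apelin peptide of sprouting endothelium, had its smallest p in the combination against control, at -0.90 ± 0.26 (edgeR, adjusted p = 0.256).

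Of the 6 tested Notch genes, 1 was called in the combination against DSF, where 1.86% of all genes were, and the list split into 3 positive and 3 negative values. Dll4, the tip cell Notch ligand, was at 7.31, 8.79 and 5.82 CPM in control, 10.5, 15 and 13.4 CPM with DSF, 7.29, 7.86 and 8.91 CPM with anti-PD-1 and 5.20, 5.54 and 5.96 CPM with the combination. The DSF libraries were the highest 3 of 12 and all lay above the combination. Dll4 fell by 1.22 ± 0.21 on the log2 scale from DSF to the combination (edgeR, adjusted p = 0.0409), and the value without DSF replicate 2 was -1.10 ± 0.22 (adjusted p = 0.0445). Over 12 fits that each left out 1 library the adjusted p in edgeR ran from 0.023 to 0.154 and 6 lost the call, those without control replicate 1 or 2, DSF replicate 3, anti-PD-1 replicate 3, and combination replicate 2 or 3. It was also lost when only both groups were fitted (edgeR, adjusted p = 0.0666). Dll4 against control was 0.83 ± 0.21 with DSF (edgeR, adjusted p = 0.24) and -0.39 ± 0.21 with the combination (adjusted p = 0.512).

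**Figure D5:**
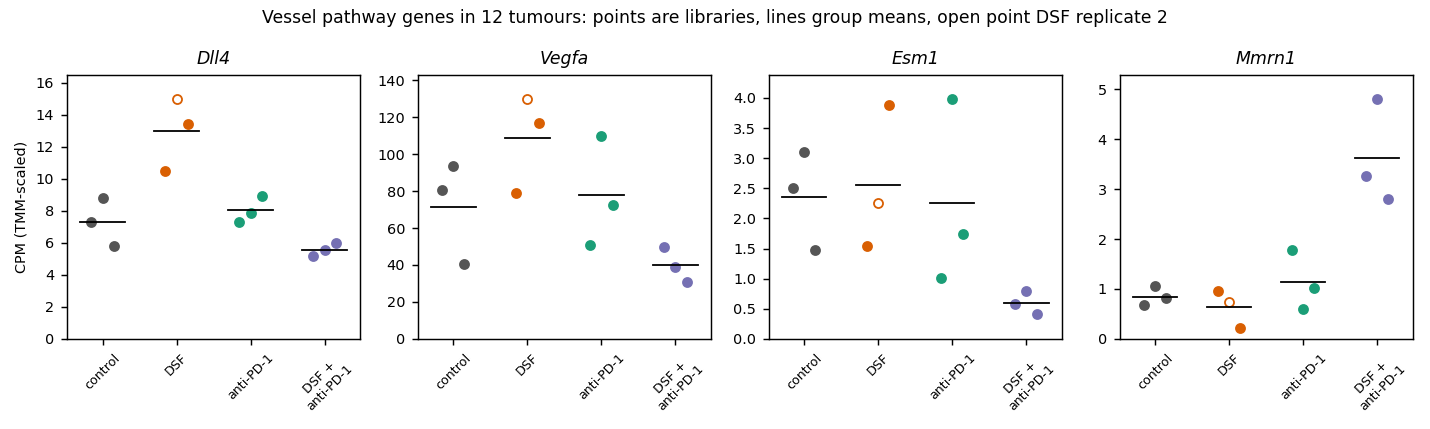
Level in CPM (vertical axes from 0) of Dll4, Vegfa, Esm1 and Mmrn1 in the 3 libraries of each group; points are libraries, lines are group means, and the open point is DSF replicate 2. For each of these 4 genes the combination libraries lie wholly to one side of the DSF libraries: below for Dll4, Vegfa and Esm1, above for Mmrn1. Of all genes tested 23.1% were separated in this way between these groups.

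The tip cell and angiogenic list had 11 tested genes, of which 0 were called in any comparison. It includes the matrix genes Col4a1, Col4a2 and Lamb1, and which cells of these bulk tumours expressed its genes was not tested. In the combination against DSF all 11 were negative (background 53.8%), with a median of -0.64, and 9 had an unadjusted p under 0.05 (background 18.9%). Without DSF replicate 2 all 11 were negative (background 49.9%) with a median of -0.49, and 7 had such a p against 26.9% of all genes. Esm1, a proteoglycan secreted by tip cells, was at 1.55, 2.25 and 3.89 CPM with DSF and at 0.584, 0.802 and 0.417 CPM with the combination. Control tumours had 2.5, 3.1 and 1.47 CPM and anti-PD-1 tumours 1.01, 3.99 and 1.75 CPM, so the combination was lowest in all 3 libraries. Its edgeR value against DSF was -2.08 ± 0.58 with adjusted p = 0.0799, and Lamb1, a basement membrane laminin chain, had -0.56 ± 0.15 with adjusted p = 0.0685. The 10 endothelial genes were negative in this comparison with all libraries and 7 of 10 positive without DSF replicate 2, whereas the tip cell list kept its sign. The difference between the lists was not tested. Between these groups other tissue markers moved as well: the 10 skin markers, of which up to 3 were at 0 in a library, summed to 11.7 to 87.1 CPM with DSF and 347 to 4860 CPM with the combination, 7 leukocyte markers to 692 to 1150 CPM and 1280 to 1310 CPM, and 6 platelet markers to 64.5 to 171 CPM and 57 to 72.6 CPM. In that comparison edgeR called the skin genes Dsg1a (3.96 ± 0.77), Krt1 (4.19 ± 0.78) and Krtdap (3.82 ± 0.65) and the leukocyte gene Coro1a (0.93 ± 0.18), each with adjusted p = 0.0409 and each lost in at least 7 of 12 fits that left out 1 library. The part of these tissues in the Dll4, Vegfa and tip cell values was not tested.

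Of 12 other endothelial receptors, 13 other junction and surface genes, 11 endothelial transcription factors and 7 leukocyte recruitment genes, 0 were called in any comparison by edgeR. In the combination against DSF 0, 2, 2 and 2 of them had an unadjusted p under 0.05, against 18.9% of all genes. Negative log2 fold changes were found for 9, 13, 6 and 4 of them (background 53.8%), with medians of -0.20, -0.31, -0.13 and 0.00. These directions rested on DSF replicate 2: without it the medians were 0.53, 0.19, 0.42 and 0.59, with 5, 2, 4 and 3 genes at an unadjusted p under 0.05 against 26.9% of all genes. The genes with the smallest p in each list were Robo4 (1.14 ± 0.50, DSF against anti-PD-1) and Nrp2 (-0.42 ± 0.20, combination against anti-PD-1) among the receptors. Tjp1 (-0.37 ± 0.14, combination against anti-PD-1) and Mcam (-0.72 ± 0.28, combination against DSF) led the junction genes. Klf4 (1.14 ± 0.26, combination against control) and Gata2 (0.95 ± 0.26, combination against DSF) led the transcription factors. Cd40, a costimulatory receptor also found on leukocytes, had 1.11 ± 0.26 in the combination against DSF, and Selp, which captures rolling leukocytes, had 1.30 ± 0.37 in DSF against control. The adjusted p of these genes in edgeR ran from 0.052 for Cd40 to 0.62 for Robo4.

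Without DSF replicate 2, edgeR called 6 genes of the 7 vessel lists in the combination against DSF, Dll4 among them, where 4.86% of all genes were called. They were 1 of 8 tested ligands, 1 of 6 Notch genes and 1 of 13 junction and surface genes. The others were 1 of 11 transcription factors and 2 of 7 leukocyte recruitment genes. In the same fit 7 of 8 tested skin markers and 3 of 10 pericyte and smooth muscle markers were called, each higher with the combination. The part of these tissues in the vessel gene values was not tested. Angpt1, the stabilising ligand of Tek, stood at 1.78 ± 0.38 (adjusted p = 0.0445). It was at 0.581, 8.43 and 0.807 CPM in DSF replicates 1 to 3 and at 2.57, 2.63 and 1.97 CPM with the combination, and with all libraries the value was -0.46 ± 0.78 (adjusted p = 0.8), so the call rested on leaving out 1 library. Klf4 (1.04 ± 0.23), Cd40 (0.84 ± 0.20) and the chemokine-binding receptor Ackr1 (2.49 ± 0.59) were higher and Tm4sf1 (-0.50 ± 0.12) was lower in that fit, with adjusted p of 0.0445 to 0.0467 in edgeR.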

How the data were processed

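Total RNA of the tumours was extracted with TRIZOL and sequenced on BGISEQ-500, per the labels' protocols. The submitters' processing notes name DESeq2 1.4.5, RSEM 1.2.12, HISAT2 2.0.4 and Bowtie2 2.2.5 but not their roles, and the genome build is not given in the sources used here. The authors deposited expected counts, FPKM and TPM per gene and per transcript, per the file headers; 9.02% of the expected counts per gene were not whole, and TPM was not used. Columns were matched to samples through the group plan deposited with the table, where p stands for anti-PD-1; 1 column ending in 11 was read as control 1.

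Expected counts were rounded, filtered with filterByExpr, scaled by TMM and fitted over all 12 libraries with edgeR 4.0.16 (quasi-likelihood, 1 mean per group, R 4.3.3). Tests were two-sided, with Benjamini-Hochberg adjustment over 14144 genes and calls at an adjusted p under 0.05. Standard errors come from the quasi-likelihood statistic. A main effect is the mean of the groups given a treatment minus that of the groups not given it. Alternatives were RLE scaling, no filter, DESeq2 1.42.0, limma 3.58.1 on log2(FPKM + 1), fits of only the groups compared, a replicate block, and leaving out each library. Marker sums are TMM-scaled CPM. The edgeR fit was tested on simulated data.

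The genes, the lists and the tests were chosen with earlier results of these data known. From each of the 7 vessel lists the text names the called genes, and otherwise the pair with the smallest p in any comparison; from marker lists it names the called genes. Other list genes (the remaining lymphatic and platelet markers, and Angpt1, Klf4, Cd40, Ackr1 and Tm4sf1 in the fit without DSF replicate 2) were chosen after their values were seen. Genes most like the endothelial mean were ranked by the smaller of 2 Pearson correlations, over 12 and over 11 libraries.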

Additional observations from a re-analysis of the deposited data

How the results depend on the processing

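0 of the 10 endothelial genes were called under any setting run, and the smallest adjusted p over all 90 fold changes and settings was 0.133, in edgeR without DSF replicate 2. The number of genes called over all genes did move. DESeq2 called 870 for any difference, 223 for DSF against control, 250, 1170 and 65 for the combination against control, DSF and anti-PD-1, 146 for DSF against anti-PD-1, 235 for the interaction, and 72 and 321 for the main effects of DSF and anti-PD-1. For the combination against DSF, where edgeR called 263, limma called 417, the fit of only both groups 0, and the fit with a replicate block 7. The fit of only both groups called 4 for the combination against anti-PD-1 and 0 for DSF against anti-PD-1. The block also ended the calls of Dll4 (edgeR adjusted p = 0.0633), Mmrn1 (0.0728) and Ppbp (0.0633), and those of Dsg1a, Krt1, Krtdap and Coro1a. After each group's mean log2 CPM was subtracted, same-numbered libraries correlated over all genes tested between -0.365 and 0.462 (median 0.129). Of these 18 correlations 10 lay above 0.1. The numbers were not taken as pairs in the main fit, and these values do not show that same-numbered libraries are unrelated.

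With each library left out in turn, genes called ranged from 0 to 688 (combination against DSF), 0 to 3 (combination against anti-PD-1), 0 to 27 (DSF against anti-PD-1), 0 to 9 (DSF against control), 0 to 39 (any difference), 0 to 21 (interaction), 0 to 3 (main effect of DSF) and 0 to 16 (main effect of anti-PD-1). Endothelial genes separating the groups ranged from 0 to 4 for the combination against DSF and for DSF against anti-PD-1, 0 to 3 for the combination and for control against anti-PD-1, and 0 to 2 for the combination and for DSF against control. These counts compare 2 libraries with 3, where the share of all genes separated was 27.9% to 46.1%, 15.8% to 26%, 25.7% to 46.6%, 10.8% to 23.4%, 26.2% to 33.5% and 17.8% to 27.2% in the same order. The highest count, 4 of 10, stood against 46.1% and 26% of all genes. On FPKM 1 gene, Pecam1, separated the combination from anti-PD-1, with 26.65 against 26.53 FPKM in the nearest libraries. The share of all genes separated on FPKM was not counted, and on CPM it was 20.8%. Fold changes that turned sign ranged from -0.72 to 0.0566 (Flt1) and -0.75 to 0.62 (Kdr) in the combination against DSF, and from -0.87 to 1.42 (Tek) and -0.66 to 1.66 (Vwf) in DSF against anti-PD-1. For the ratios, the value followed was the difference in mean log2 ratio, libraries given a treatment minus those not given it. For Angpt2 to Tek this difference ranged from -0.28 to 0.34 for DSF and -0.54 to 0.0745 for anti-PD-1. For Flt1 to Kdr it ranged from -0.14 to 0.10 and -0.21 to 0.0314, and for Kdr to Cdh5 from -0.23 to 0.12 for DSF. The Flt1 to Kdr difference for DSF was -0.0598 on FPKM + 0.1.

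The precision is limited by 3 libraries per group, and by 2 in the DSF arm without replicate 2. A p that misses the threshold does not show equal levels.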

Other observations

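Of 7 markers of lymphatic endothelium, 4 were higher and 3 lower in the combination than in DSF tumours, with a median log2 fold change of 0.94, and 1 was called, where 1.86% of all genes were. Without DSF replicate 2 all 7 were higher, with a median of 2.13, and 3 were called, against 4.86% of all genes. Mmrn1, a multimerin found in lymphatic endothelium and platelets, was at 0.968, 0.749 and 0.22 CPM with DSF and at 3.27, 4.81 and 2.8 CPM with the combination, and at 0.67, 1.05 and 0.824 CPM in control and 1.78, 0.605 and 1.02 CPM with anti-PD-1. All 3 combination libraries lay above the other 9. The log2 fold change of the combination over DSF was 2.46 ± 0.54 (edgeR, adjusted p = 0.0475). The call was lost in 9 of 12 fits that left out 1 library (adjusted p in edgeR 0.0348 to 0.16), without the filter on low counts (0.0584) and when only both groups were fitted (0.0999). Ccl21a, a chemokine of lymphatic vessels, had 2.62 ± 0.69 (edgeR, adjusted p = 0.07), Prox1, the transcription factor that defines lymphatic identity, 1.48 ± 0.65 (0.246), and Reln 0.94 ± 0.95 (0.645). Lyve1, also carried by some macrophages, had -1.47 ± 0.92 (0.424), Pdpn -0.24 ± 0.43 (0.808) and Flt4 -0.05 ± 0.48 (0.969). Lyve1 was at 57.1 CPM and Pdpn at 108 CPM in DSF replicate 2, each the highest of the 12 libraries. The combination libraries also had the highest skin marker sums but for 1 anti-PD-1 library, and the part of skin in the lymphatic values was not tested.

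Of 4 tested platelet markers 2 were higher and 2 lower in the combination than in DSF tumours, with a median of -0.15. Ppbp, a platelet chemokine precursor, fell by 3.76 ± 0.71 on the log2 scale (edgeR, adjusted p = 0.0409), a call that was lost in 7 of 12 fits that left out 1 library and when only both groups were fitted (edgeR, adjusted p = 0.0987). Pf4 had -0.99 ± 0.33 (edgeR, adjusted p = 0.129), Itga2b 0.69 ± 0.32 (0.265) and Gp1bb 0.82 ± 0.51 (0.422). The 6 platelet markers summed to 64.5, 171 and 123 CPM in DSF replicates 1 to 3, of which Pf4 alone made up 58.9, 155 and 113 CPM.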
